A study of Mus musculus with 4 samples.

Results

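Cycling endothelial cells are the vessel-lining cells of the lung that carried transcripts of mitosis at the time the tissue was dissociated. A barcode was counted as one when it held at least 500 genes and at most 20% mitochondrial UMIs (unique molecular identifiers, each standing for 1 captured transcript). Its Col1a1, Col1a2 and Col3a1 UMIs had to stay under 0.3% of the total, and it had to lack UMIs of Epcam, Ptprc, Mmrn1 and Prox1, which mark epithelial, blood and lymphatic endothelial cells. It then had to hold UMIs of at least 3 of the 6 endothelial genes Cdh5, Cldn5, Emcn, Icam2, Pecam1 and Calcrl, and of at least 3 of the 6 cycling genes Top2a, Mki67, Cenpf, Birc5, Ube2c and Hmmr. The cells were thus chosen by their own UMIs of these genes. The rule found 272 cells, called members here, among the 27815 barcodes of the series: 85 and 62 in wild type replicates 1 and 2, and 49 and 76 in Dnmt1 CKO replicates 1 and 2.

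The study asked what loss of Dnmt1, the methyltransferase that copies DNA methylation to the new strand after replication, does to the late fetal lung. Single-cell 3′ libraries were made from embryonic mouse lung at E18.5, late in gestation, 2 from wild type mice and 2 from mice called Dnmt1 CKO. These carry the driver Tbx4-rtTA, the responder Tet-O-Cre and the Dnmt1 allele written Dnmt1-D/D. In that design the Tbx4-driven activator turns on Cre in lung mesenchyme, so endothelial cells are not the lineage in which Dnmt1 is meant to be deleted. The labels give neither the doxycycline schedule nor the deleted exons, and they do not say that each library is a separate animal, so all p-values measure the spread between these 4 libraries only. Strain and sex are not in the labels; Xist was at 1377, 0, 0 and 1563 CPM (UMIs per 1000000 UMIs of the cells summed) and Ddx3y at 0, 93.0, 69.3 and 0 CPM in the 4 libraries, in the order wild type 1, wild type 2, CKO 1, CKO 2. That order is used for every set of 4 values here. Each group held 1 library with Xist and 1 with a Y-linked transcript.

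In the days before birth the lung capillary bed expands with the air sacs, and its endothelial cells divide while keeping their junctions and vascular identity. Genes of DNA replication rise first in the cell cycle, mainly through E2F factors, and genes of mitosis rise later, mainly through the DREAM and MuvB complexes, which act at a short promoter motif named the CHR, and through NF-Y, which binds the CCAAT box. The 6 cycling genes of the rule belong largely to the later wave: Top2a untangles DNA, Cenpf and Birc5 act at the centromere, Ube2c marks mitotic proteins for degradation, Hmmr organises the spindle and Mki67 coats mitotic chromosomes.

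The promoters of 6 genes are printed here, 3 of them cycling genes of the rule that hold a CHR match, as 150 bases ending just before the RefSeq start on GRCm38.p6, 5′ to 3′ on the gene's strand. Capitals mark every match on either strand. The CHR was searched as TTTGAA and as its close form TTCGAA. The CCAAT box was searched by the letters of its name. For E2F the forms searched were TTTCCCGC, TTTGGCGC, TTTCGCGC and TTTGCCGC. Top2a, Mki67 and Ube2c are cycling genes of the rule, Cdk1 is the mitotic kinase, Mcm5 is a subunit of the replicative helicase and Cldn5 is an endothelial tight-junction gene of the rule.
Top2a, chr11:99024190-99024339 (- strand): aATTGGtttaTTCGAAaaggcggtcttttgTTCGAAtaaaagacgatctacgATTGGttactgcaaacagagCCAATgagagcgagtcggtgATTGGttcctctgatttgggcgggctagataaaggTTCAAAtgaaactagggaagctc
Mki67, chr7:135716380-135716529 (- strand): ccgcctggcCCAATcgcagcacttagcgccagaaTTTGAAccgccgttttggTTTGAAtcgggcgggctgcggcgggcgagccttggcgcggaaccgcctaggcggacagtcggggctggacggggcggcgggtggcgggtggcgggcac
Ube2c, chr2:164769779-164769928 (+ strand): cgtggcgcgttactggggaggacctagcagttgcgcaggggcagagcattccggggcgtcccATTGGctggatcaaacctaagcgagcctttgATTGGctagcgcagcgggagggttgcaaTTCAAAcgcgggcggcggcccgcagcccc
Cdk1, chr10:69352913-69353062 (- strand): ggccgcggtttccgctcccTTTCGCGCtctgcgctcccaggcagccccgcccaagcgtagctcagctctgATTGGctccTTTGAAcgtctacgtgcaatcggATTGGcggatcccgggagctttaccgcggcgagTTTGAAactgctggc
Mcm5, chr8:75109359-75109508 (+ strand): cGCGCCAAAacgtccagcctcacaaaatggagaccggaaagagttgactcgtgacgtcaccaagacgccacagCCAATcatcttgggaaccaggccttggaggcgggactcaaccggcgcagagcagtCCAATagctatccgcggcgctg
Cldn5, chr16:18776697-18776846 (+ strand): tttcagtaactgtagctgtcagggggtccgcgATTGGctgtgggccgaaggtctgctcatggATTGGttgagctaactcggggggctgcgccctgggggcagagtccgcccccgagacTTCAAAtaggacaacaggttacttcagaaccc

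In the Top2a window CHR letters began 140, 120 and 23 bases before the start, and in the Ube2c window 29 bases before it. Cdk1 held CHR letters 71 and 15 bases and an E2F match 131 bases before its start, whereas Mcm5 held an E2F match 149 bases before its start and no CHR letters. Of the 6 cycling genes of the rule, 3 held CHR letters in the 250 bases before the start (the 3 printed) and 5 a CCAAT box, and Birc5 held no match in its window of 150 bases. Of the 3 endothelial genes of the rule with a promoter in the table, 2 held CHR letters. The Cldn5 window also held a CHR match and CCAAT boxes, so these short letters are not particular to cycling genes. Over the same 250 bases, CHR letters were found in 16 of 42 promoters (38.1%) of a list of G2 and M phase genes outside the rule, in 5 of 32 (15.6%) of a list of S phase and replication genes and in 19.6% of all 27025 genes with a promoter in the table. CCAAT boxes were found in 73.8% of the G2 and M list, 59.4% of the S list and 37.5% of all genes. E2F matches were found in 4.76%, 25% and 2.16% of them. Of the 13 matched promoters in a list of pan-endothelial genes, 1 held CHR letters and none an E2F match. Matches of different motifs may share end bases where they adjoin, and a match describes the sequence only.

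The libraries held 48213065, 56760219, 49582593 and 54334468 UMIs in all. Barcodes passing the gene and mitochondrial limits numbered 5339, 5104, 4401 and 5757, and 568, 606, 191 and 459 of these met the endothelial part of the rule. Endothelial cells thus made up 10.6% and 11.9% of passing barcodes in wild type and 4.34% and 7.97% in CKO (exact two-sided permutation p = 0.333, the smallest that 2 against 2 libraries allow). Between 6284 and 7820 barcodes were deposited per library; 8 to 16 barcode sequences were shared by any pair of libraries, and none of the 272 members carried a shared one.

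The members held 1171698, 838748, 649434 and 1229179 UMIs, with a median of 8351, 9144.5, 8739 and 10144.5 per cell. Endothelial cells by the same gate with no UMI of the 6 cycling genes, called non-cycling here, numbered 400, 464, 103 and 311 and had medians of 4011, 4857, 3916 and 3626 UMIs. Members were therefore deeper than non-cycling cells in all 4 libraries, which the rule favours, since a deep cell has more chances to hold a UMI of each gene. The median mitochondrial share was 2.85%, 2.93%, 3.30% and 2.89%. The doublet caller Scrublet marked 3 of the 272 members.

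Of the 272 members, 35 held UMIs of exactly 3 of the 6 genes, 37 of 4, 50 of 5 and 150 of all 6. The cells just inside, with 3 genes, held 4015 CPM of the summed G2 and M list when pooled over the libraries, and the 63 cells just outside, with 2 genes, held 1565 CPM. Cells with 0 genes had 761 CPM, members with 4 had 3551 CPM and members with all 6 had 10320 CPM, so the level did not rise at each step. The libraries differed: from 2 to 3 genes CKO replicate 2 went from 1381 to 2056 CPM, and wild type replicate 2 had 7171 CPM with 3 genes and 2417 CPM with 4.

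Transcripts of the 6 cycling genes made up a median of 37.4, 52.6, 29.2 and 27.0 UMIs per 10000 in a member. The range was wide: 3, 1, 1 and 5 members held under 5 per 10000. A member of wild type replicate 2 with 113197 UMIs held only 16 cycling-gene UMIs, and a member of wild type replicate 1 with 65744 UMIs held 5. These 2 cells recur below because the first alone gave 13.5% of its library's member UMIs. When the cycling part of the rule was applied after every cell was thinned to 3000 UMIs, 61, 47, 31 and 57 members met it.

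The endothelial label fitted the members. Cdh5, the adherens-junction cadherin of endothelium, stood at 1323, 1446, 1119 and 1526 CPM, and Cldn5 at 1355, 1004, 1033 and 1128 CPM. Pecam1, which joins neighbouring endothelial cells, stood at 917, 1187, 1012 and 1099 CPM. These were rule genes, so their presence is no finding, but all 30 pan-endothelial genes outside the rule also had UMIs in the members of every library. Kdr, the main Vegf receptor, stood at 536, 600, 662 and 609 CPM. Summed over the 30 genes the level was 12159, 11837, 12343 and 12538 CPM, against 644, 533, 489 and 632 CPM in cycling mesenchymal cells of the same libraries. That comparison population was taken by the same cycling genes, with collagen UMIs at or above 0.3% and no UMI of Epcam, Ptprc, Cdh5 or Cldn5, and it held 72, 24, 177 and 114 cells.

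Transcripts of other cell types were present, haemoglobins at a high level. Summed fibroblast markers stood at 1378, 2127, 831 and 1114 CPM in members, and at 9742, 7986, 5263 and 7513 CPM in cycling mesenchymal cells. Fn1 of this list is also in the list of endothelial matrix genes, so the sum need not be of fibroblast origin alone. Summed erythroid markers, mainly haemoglobins, stood at 16641, 2139, 11387 and 16233 CPM, low in wild type replicate 2 alone. In wild type replicate 1 and CKO replicate 2 that exceeded the sum of the 30 pan-endothelial genes. Haemoglobin took over 10% of the UMIs in 3, 0, 2 and 3 members, and 52.3% in the highest. Summed pericyte markers stood at 239, 160, 20.02 and 164 CPM in members and at 110, 131, 18.47 and 33.7 CPM in non-cycling cells, and 7 of the 9 were at 0 in the members of CKO replicate 1. Alveolar type 2 markers summed to 240, 241, 248 and 445 CPM, and the surfactant gene Sftpc was found in 53.3% to 70.4% of members at 3000 UMIs against 63.6% to 89.6% of non-cycling cells. Of 8 lymphoid markers, 6 were at 0 in all members.

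Set against non-cycling endothelial cells, members differed far beyond the 6 genes that chose them; these ratios follow from the choice and are given without a test. Among 3828 genes with at least 50 CPM, 155 were more than 2-fold higher in members in all 4 libraries and 3 were more than 2-fold lower, around a median log2 ratio of 0.01. By any amount, 1055 of the 3828 genes were higher in all 4 libraries and 759 lower. Hist1h2ap, a core histone made during replication, averaged 621 CPM in members and 4.95 CPM in non-cycling cells, a log2 ratio of 6.03 with 5 CPM added to both. Prc1, which bundles the microtubules of the dividing spindle, averaged 363 and 2.46 CPM (log2 ratio 5.59). Cenpe, a kinetochore motor, Pclaf, a partner of PCNA, and Tpx2, a spindle assembly factor, had log2 ratios of 5.20, 5.15 and 5.01. At the other end, Fbln2, Scgb3a2 and Thsd7a had ratios of -1.62, -1.55 and -1.54. These were the lowest with 1 direction in all 4 libraries, leaving out unnamed gene models, pseudogenes and mitochondrial genes.

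By list, all 43 G2 and M genes at that level were higher in members in all 4 libraries, with a median log2 ratio of 3.71. All 19 S phase genes were higher too, with a smaller median of 1.78, and so were 7 of 7 replication-dependent histone genes (median 3.13). Cyclin B1 (Ccnb1), the partner of Cdk1 in mitosis, was detected in 57.6%, 53.2%, 53.1% and 61.8% of members, and in 37.3%, 37.7%, 26.1% and 35.2% of those with at least 3000 UMIs once thinned to that number. In non-cycling cells at full depth it was detected in 0%, 0.431%, 1.94% and 0.322%. Pcna, the sliding clamp of DNA polymerase, averaged a log2 ratio of 1.40 ± 0.14 (SD, n = 4) because non-cycling cells also held it, at 67.9, 64.0, 71.8 and 79.4 CPM.

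**Figure D1:**
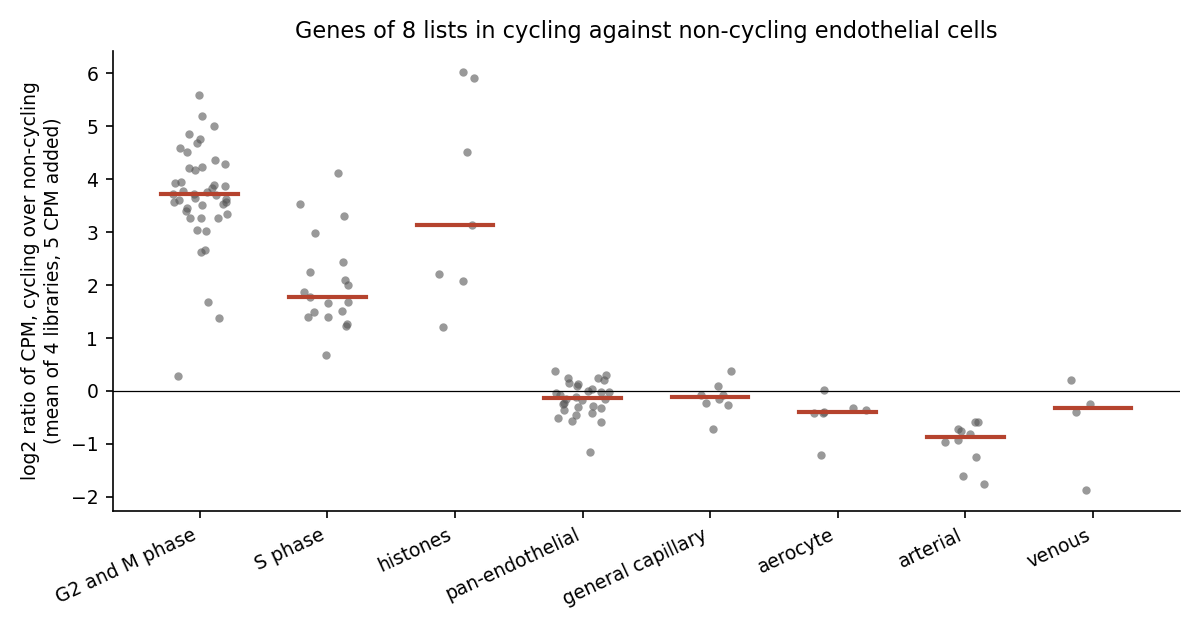
Log2 ratio of CPM in cycling over non-cycling endothelial cells (5 CPM added to both) for the genes of 8 lists with at least 50 CPM, each point 1 gene averaged over 4 libraries and each red bar the list median. G2 and M, S phase and histone genes lie above 0, with medians of 3.71, 1.78 and 3.13, and the endothelial lists lie around or below 0.

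Cell cycle regulators outside the waves were uneven. Cdkn2c, a Cdk4 and Cdk6 inhibitor, was at 63.2, 52.5, 57.0 and 44.8 CPM in members and at 3.60, 2.18, 8.21 and 0.70 CPM in non-cycling cells, a log2 ratio of 2.84 ± 0.41 (SD, n = 4). Its relative Cdkn2d had a ratio of 1.20, and Cdk4 one of 0.84. Cyclin D1 (Ccnd1), which carries growth signals into the cycle, was nearly level at 0.13. Ccnd2 and the antiproliferative gene Btg2 were lower in members, at -0.43 and -0.49.

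Endothelial identity genes changed little between the 2 populations. The 30 pan-endothelial genes had a median log2 ratio of -0.13, with 6 higher and 10 lower in all 4 libraries. Of all 3828 genes with at least 50 CPM, 1055 were higher and 759 lower in all 4. General capillary markers (8 genes, median -0.11) were close to level; Gpihbp1, which holds lipoprotein lipase on capillaries, had a ratio of -0.08 and Plvap, of the fenestral diaphragm, 0.37. Markers of aerocytes, the large Car4-positive capillary cells that line the air sacs, had a median of -0.39 over 7 genes, and Car4 itself averaged 67.1 CPM in members and 145 CPM in non-cycling cells. Arterial markers were lowest, with a median of -0.88 over 10 genes, 6 of them lower in all 4 libraries. Hey1, an arterial Notch target, stood at 51.2, 48.9, 46.2 and 31.7 CPM in members and at 95.7, 92.0, 98.5 and 75.2 CPM in non-cycling cells. Dll4, a Notch ligand of arteries and tip cells, had a ratio of -0.60, whereas Nrarp, a feedback inhibitor of Notch, had 0.95.

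Of the 20 genes of the DNA methylation machinery, 10 reached 50 CPM. In all 4 libraries 7 of these were higher and 2 lower in members, against 1055 and 759 of all 3828 genes at that level. Their median log2 ratio was 0.45. Dnmt1 stood at 131, 147, 117 and 120 CPM in members and at 31.4, 41.1, 24.6 and 26.0 CPM in non-cycling cells, a log2 ratio of 1.92 ± 0.15 (SD, n = 4). Uhrf1, which guides Dnmt1 to newly replicated DNA, had a ratio of 2.24 ± 0.24, and the chromatin remodeller Hells one of 1.87. Dnmt3a, a de novo methyltransferase, was lower in members, at -0.49.

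Between genotypes, Dnmt1 (ENSMUSG00000004099.16, chromosome 9, 20907209 to 20959888, minus strand, GRCm38) in the members was at 131 and 147 CPM in the wild type libraries against 117 and 120 CPM in the CKO libraries. The groups did not overlap, and the log2 difference was -0.17 (SE 0.22, unadjusted p = 0.46 in the quasi-likelihood test of edgeR). In cycling mesenchymal cells, the targeted lineage, Dnmt1 was at 108 and 89.4 CPM in wild type, against 22.03 and 31.4 CPM in CKO, a log2 difference of -1.86 (edgeR with Benjamini-Hochberg adjustment, adjusted p = 0.022). The difference between the 2 populations in this effect was 1.69 on the log2 scale (SE 0.30), and it did not pass adjustment over the 10312 genes of that test (edgeR adjusted p = 0.103). A 3′ count can include transcripts with internal exons deleted, so the mesenchymal value need not measure the full loss.

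Germline genes, which DNA methylation keeps silent in body cells, were summed over a list of 35. They stood at 16.2, 15.5, 21.6 and 116 CPM in cycling endothelial cells and at 46.5, 54.4, 2620 and 2244 CPM in cycling mesenchymal cells. None of the 35 passed the low-count filter for a test in the members. In non-cycling cells Dazl alone passed it. Dazl was at 0 CPM in both wild type libraries there, against 10.3 and 47.1 CPM in CKO (log2 4.84, edgeR adjusted p = 2.39e-05). Germline UMIs were concentrated there too. In CKO replicates 1 and 2, 9 of 20 and 49 of 180 lay in 1 non-cycling cell each. Only 2 of 103 and 9 of 311 non-cycling cells held 3 or more. In the members, the value of CKO replicate 2 came mostly from 2 cells with 82 and 31 of the 142 germline UMIs. These 2 cells had collagen at 0.279% and 0.211% of UMIs, just under the limit of the rule. They held 182 and 68 UMIs of fibroblast markers with 23 and 37 of the 6 endothelial genes. Whether these 2 barcodes mix cells was not tested beyond Scrublet, which did not mark them.

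**Figure D2:**
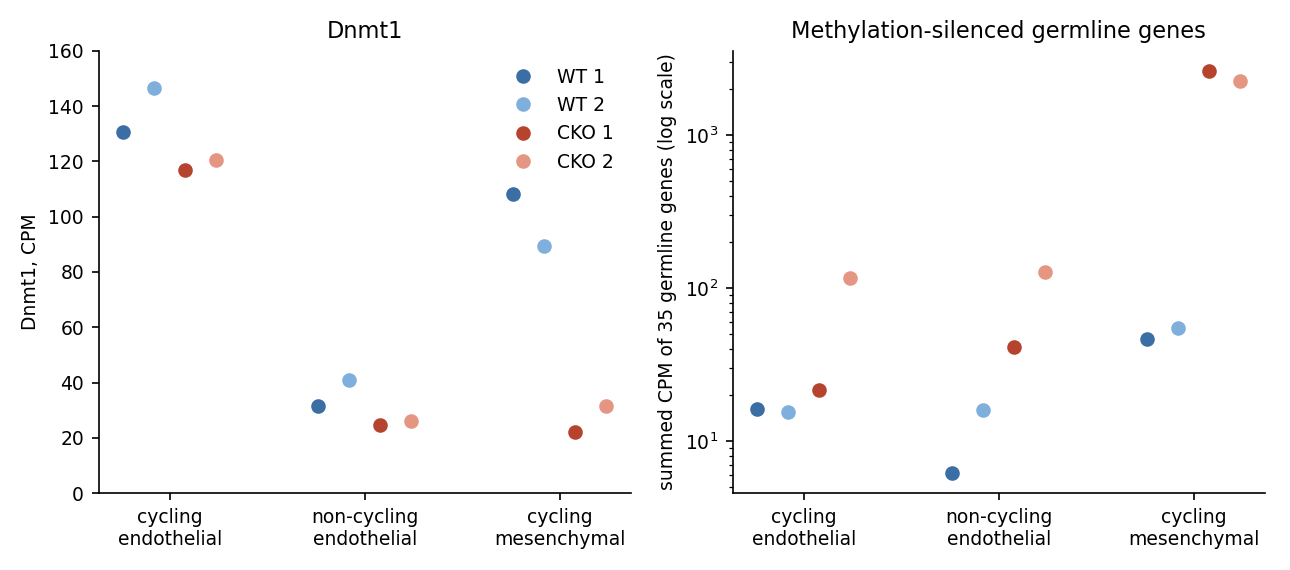
Dnmt1 (left, linear axis) and the summed list of 35 germline genes (right, log axis) in CPM per library for cycling endothelial, non-cycling endothelial and cycling mesenchymal cells, each point 1 library. Dnmt1 in CKO is at 117 and 120 CPM in cycling endothelial cells and at 22.03 and 31.4 CPM in cycling mesenchymal cells, where the germline sum reaches 2620 and 2244 CPM.

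No gene differed between CKO and wild type in cycling endothelial cells after adjustment. Of 8661 genes tested on UMIs summed per library, 0 (0%) had an edgeR adjusted p under 0.05 and 262 (3.03%) had an unadjusted p under 0.05; the smallest adjusted p was 0.948. DESeq2 called 1 gene, Igfbp7. Leaving out wild type replicate 1, wild type replicate 2, CKO replicate 1 or CKO replicate 2 gave 2, 0, 50 or 55 called genes. The 2 groups did not overlap in 29.4% of genes, 11.7% higher and 17.7% lower in CKO, and the median log2 difference over all genes was 0.01. The same test on non-cycling cells called 11 of 9928 genes (0.111%), 8 higher (0.0806%) and 3 lower (0.0302%), with 431 (4.34%) at an unadjusted p under 0.05. On cycling mesenchymal cells it called 69 of 9474 (0.728%), 59 higher (0.623%) and 10 lower (0.106%).

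Igfbp7 (chromosome 5, 77349240 to 77408041, minus strand, GRCm38), a secreted insulin-like growth factor binding protein of vessels, was at 268 and 166 CPM in wild type, against 674 and 456 CPM in CKO members. Both CKO libraries were above both wild type libraries, the log2 difference was 1.40 (SE 0.30), and it did not pass in edgeR (adjusted p = 0.948) but did in DESeq2 (log2 1.41, adjusted p = 0.0343). It was found in 58.8% and 46.8% of wild type members and in 73.5% and 67.1% of CKO members. In non-cycling cells Igfbp7 rose, from 339 and 261 CPM to 741 and 706 CPM (log2 1.31, edgeR adjusted p = 0.0447). That call was lost without CKO replicate 1 or CKO replicate 2 (edgeR adjusted p = 0.161 and 0.152), with Scrublet doublets left out (0.0572) and with equal cells per library (0.118).

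A pair of fatty acid binding protein genes that lie near each other on chromosome 3, Fabp5 (10012548 to 10016607, plus strand) and Fabp4 (10204088 to 10208576, minus strand), stood higher on average in CKO. Fabp5 was at 104 and 117 CPM in wild type members, against 194 and 240 CPM in CKO members (log2 1.02, SE 0.23), with no overlap. Fabp4, a marker of capillary endothelium, was at 15.4, 114, 114 and 251 CPM (log2 1.61, SE 0.59), so wild type replicate 2 and CKO replicate 1 were level. Of the 96 Fabp4 UMIs of wild type replicate 2, 90 came from 1 cell of 89945 UMIs, and of the 74 and 308 UMIs in CKO 38 and 145 came from 1 cell each. Thinning each cell to at most 8000 UMIs gave a Fabp4 difference of 3.05 (edgeR adjusted p = 2.72e-05); requiring the cycling genes after thinning to 3000 UMIs gave 3.68 for Fabp4 and 1.78 for Fabp5 (adjusted p = 0.00892 and 0.0306). Both settings were chosen after the data were seen. Fabp4 rose in non-cycling cells, from 91.6 and 103 CPM to 583 and 402 CPM (log2 2.36, edgeR adjusted p = 2.74e-05).

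St6galnac5 (chromosome 3, 152817081 to 152982246, minus strand), a sialyltransferase gene, was lower in CKO members, at 42.7 and 32.2 CPM in wild type, against 0 and 7.32 CPM in CKO (log2 -2.55, SE 0.52, not called). Its UMIs were spread over 32 and 19 wild type members and over 0 and 6 CKO members. The gene fell in non-cycling cells, from 37.6 and 39.3 CPM to 4.10 and 9.14 CPM (log2 -2.13, edgeR adjusted p = 0.0207), a call that DESeq2 (adjusted p = 0.38) and equal cells per library (edgeR adjusted p = 0.118) did not make. Ifitm1, an interferon-inducible membrane protein, was at 47.8, 63.2, 23.1 and 20.3 CPM (log2 -1.23, SE 0.30), and the platelet chemokine Pf4 at 4.27, 5.96, 18.48 and 26.0 CPM (log2 1.85, SE 0.41). Both rested on few members. Ifitm1 was found in 14.1%, 14.5%, 16.3% and 15.8% of them. In wild type replicate 2, 24 of its 53 UMIs came from 1 cell, and in CKO replicate 1, 7 of 15. Pf4 held 5, 5, 12 and 32 UMIs, in 4, 3, 5 and 14 members.

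The other genes called in non-cycling cells were uneven in the members. H2-Q7, a class Ib major histocompatibility gene, held 12, 10, 8 and 253 UMIs, the last spread over 39 of 76 cells, so CKO replicate 2 alone was high. Ndufa4l2, a hypoxia-inducible mitochondrial protein, was at 70.8, 32.2, 0 and 43.1 CPM, and Gucy1a1, a subunit of the nitric oxide receptor, at 73.4, 25.04, 18.48 and 31.7 CPM. Gucy1a1 is also 1 of 9 pericyte markers. In the members all 5 tested pericyte markers were below 0 (median log2 difference -0.87, none at an unadjusted p under 0.05), and in non-cycling cells all 4 tested were (median -1.80, 4 at an unadjusted p under 0.05); their part in these differences was not tested. Saa3, an acute-phase protein, held 0, 0, 1 and 9 UMIs, and the germline gene Dazl 0, 0, 1 and 29, of which 17 lay in 1 cell. Nnat held 15, 7, 5 and 45 UMIs, Hp 2, 11, 3 and 18, and Hdc 1, 0, 1 and 1. In non-cycling cells H2-Q7 was at 11.3, 6.18, 10.3 and 77.3 CPM and Nnat at 4.63, 4.73, 6.16 and 52.0 CPM. Hdc was at 1.03, 1.09, 47.2 and 6.33 CPM there, so in these genes 1 CKO library stood far above the other.

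Like Ifitm1 and Pf4, the other genes with the smallest p were carried by few cells. Gja5, the arterial connexin 40, was at 17.1, 59.6, 6.16 and 4.88 CPM, Slc45a4, a membrane transporter, at 20.5, 103, 4.62 and 4.07 CPM, and Wfdc1, a secreted protease inhibitor, at 12.8, 15.5, 0 and 0.814 CPM. The 113197-UMI cell of wild type replicate 2 held all 50 Gja5 UMIs, 81 of 86 Slc45a4 UMIs and 12 of 13 Wfdc1 UMIs of that library. The 65744-UMI cell of wild type replicate 1 held 18 of 20, 19 of 24 and 11 of 15. With each cell thinned to at most 8000 UMIs, Gja5, Slc45a4, Wfdc1 and the hedgehog inhibitor Hhip no longer passed the low-count filter. Aldoc, a glycolytic enzyme at 11.9, 17.9, 1.54 and 0 CPM, had 10 of 14 and 14 of 15 of its wild type UMIs in the same 2 cells. Hhip had 0 UMIs in these 2 cells. It was at 17.1, 42.9, 1.54 and 4.88 CPM in members and at 354, 749, 216 and 215 CPM in cycling mesenchymal cells.

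Counting list by list gave no called gene in any of the 39 lists, so the lists are described by their medians beside the median of 0.01 over all genes. The G2 and M list had a median log2 difference of -0.34, with 49 of 50 genes below 0 and 8 at an unadjusted edgeR p under 0.05, against 3.03% of all genes tested. Other lists had such genes too: 4 of 11 arterial markers, 5 of 24 interferon response genes and 4 of 7 fibroblast markers. Bub1b, of the spindle checkpoint, was at 102 and 103 CPM in wild type, against 55.4 and 59.4 CPM in CKO (log2 -0.76, SE 0.23). Nusap1, a spindle protein, was at 224, 252, 137 and 142 CPM (log2 -0.71), and Kif4, a chromosome-arm motor, at 95.6, 125, 66.2 and 63.5 CPM (log2 -0.70). Knstrn, at 0.07, was the single gene of the list above 0. Mitotic genes share their timing within a cell, so the 50 genes are not separate pieces of evidence.

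Of the rule's own cycling genes, Hmmr was at 157 and 182 CPM in wild type, against 108 and 98.4 CPM in CKO, and Cenpf at 511, 857, 403 and 447 CPM. Top2a, at 683, 1099, 665 and 636 CPM, was high in wild type replicate 2 and nearly level in the other libraries. UMIs of all 6 genes were found in 61.2% and 61.3% of wild type members and in 49.0% and 47.4% of CKO members. The members were chosen by these same genes, so these values are a description with no test.

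The G2 and M list was also counted per cell at matched depth. These were the same members, chosen at full depth by other genes of mitosis, so the counts are not separate evidence. Members with at least 3000 UMIs, thinned to 3000, held a median of 30 and 40 G2 and M list UMIs in wild type and 26.5 and 26 in CKO (exact permutation p = 0.333). More S list than G2 and M list UMIs were held by 7 of 75 and 3 of 53 wild type members, or 9.33% and 5.66%. In CKO the count was 9 of 46 and 9 of 71, or 19.6% and 12.7%, again without overlap (exact permutation p = 0.333). The summed G2 and M level, without thinning, was 9170 and 10606 CPM in wild type, against 8281 and 7079 CPM in CKO. The list kept a median below 0 in all 18 alternative settings tried for this comparison, between -0.46 and -0.19, with 44 to 49 of 50 genes below 0.

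**Figure D3:**
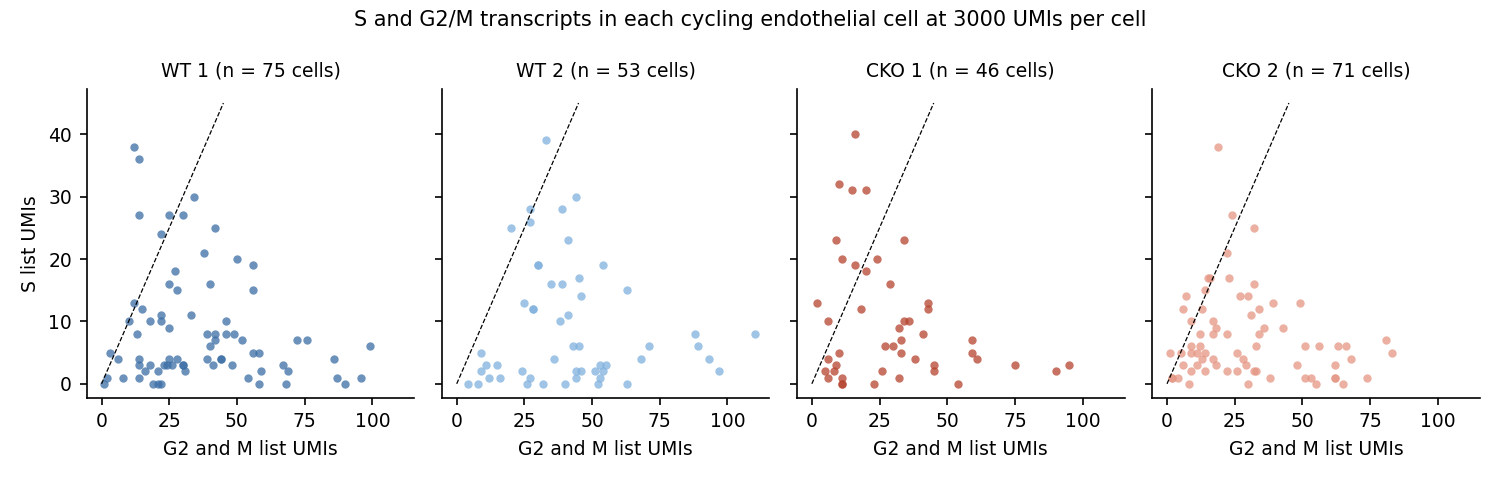
S list UMIs (y axis) against G2 and M list UMIs (x axis) in members thinned to 3000 UMIs, 1 panel per library, each point 1 cell, with a dashed line of equal counts. Median G2 and M counts are 30, 40, 26.5 and 26, and 9.33%, 5.66%, 19.6% and 12.7% of the cells lie above the line.

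S phase genes had a median log2 difference of 0.19, with 31 of 38 tested genes above 0, and the median stayed above 0 in 16 of 18 alternatives. Mcm3, a helicase subunit, was at 68.3, 54.8, 125 and 101 CPM (log2 0.87, SE 0.25), and Lig1, the replicative DNA ligase, at 64.9, 81.1, 146 and 83.0 CPM. The other two settings were chosen after the data were seen. With each cell thinned to at most 8000 UMIs the median was -0.04, with 13 of 35 genes above 0, and with the cycling genes required after thinning it was -0.10, with 12 of 36. Summed S list levels were 2335, 2265, 2809 and 2253 CPM, with CKO replicate 1 alone standing apart (exact permutation p = 1). Replication-dependent histones had a median of -0.34 over 11 tested genes, and their sum was 1978, 2618, 2414 and 1290 CPM (exact permutation p = 0.667).

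Pan-endothelial and capillary lists lay within 0.17 of 0. The 30 pan-endothelial genes had a median log2 difference of 0.05, general capillary markers 0.17 (9 tested) and aerocyte markers 0.15 (8 tested). Apln, a peptide ligand made by aerocytes and tip cells, was at 64.0, 29.8, 69.3 and 116 CPM (log2 0.98, not called). Arterial markers had a median of -0.22, with 10 of 11 below 0, but 0.01 over 9 genes after thinning to at most 8000 UMIs and 0.42 over 10 genes when the cycling genes were required after thinning. Their sum was 1208, 2137, 1278 and 1206 CPM, so wild type replicate 2, the library of the 113197-UMI cell, was alone in being high. Genes of the Vegf pathway (median 0.07, 9 tested), Notch pathway (-0.08, 12 tested) and Bmp and Tgf-beta pathway (0.02, 17 tested) gave no called gene.

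Lists tied to methylation and stress gave no called gene either. The DNA methylation machinery had a median of 0.08 over 18 tested genes, imprinted genes 0.00 over 22, and p53 and apoptosis genes -0.07 over 23. Cdkn1c, an imprinted Cdk inhibitor, was at 125, 173, 69.3 and 91.1 CPM (log2 -0.80, not called). In wild type replicate 2 the 113197-UMI cell held 76 of its 145 UMIs. Detection of Cdkn1c went the other way, with UMIs in 36.5% and 35.5% of wild type members and in 42.9% and 50% of CKO members. Interferon response genes had a median of -0.22, with 10 of 24 tested genes above 0 and 5 at an unadjusted p under 0.05; Bst2, an antiviral membrane tether, was at 413, 614, 212 and 628 CPM, low in CKO replicate 1 alone. Endothelial matrix and basement membrane genes had a median of 0.21, with 15 of 22 above 0. Fibroblast markers had a median of -0.94 over 7 tested genes, and their summed level was lower in CKO, at 831 and 1114 against 1378 and 2127 CPM. Of the 10 fibroblast markers 3 did not pass the filter. The part that carried-over mesenchymal RNA has in the differences above was not tested.

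**Figure D4:**
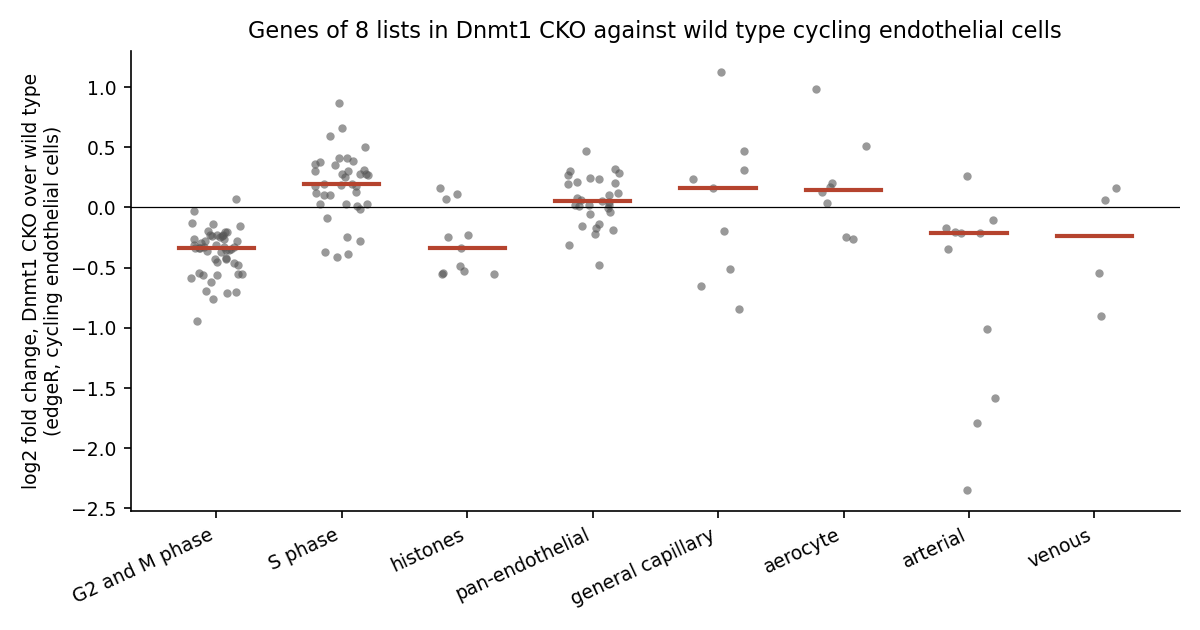
Log2 difference of Dnmt1 CKO over wild type in cycling endothelial cells for the tested genes of 8 lists, each point 1 gene, each red bar the list median and the thin line no difference. The G2 and M list has 49 of 50 genes below 0 (median -0.34), and no gene shown passed adjustment.

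The CKO effect in cycling cells was also set directly against that in the comparison populations. Between cycling and non-cycling endothelial cells, 0 of 9829 genes (0%) had an effect that differed after adjustment in edgeR, or in DESeq2, and 395 (4.02%) had an unadjusted p under 0.05. The smallest p belonged to Fos, an immediate early gene, at 64.0, 91.8, 253 and 113 CPM in cycling and 237, 190, 222 and 143 CPM in non-cycling cells (interaction log2 1.36, SE 0.26, not called). Leaving out a library gave 0 to 33 called genes, the most without wild type replicate 1. The genes called in non-cycling cells were therefore not shown to respond differently in cycling ones.

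Against cycling mesenchymal cells, 0 of 10312 genes (0%) passed in edgeR, with 718 (6.96%) at an unadjusted p under 0.05; DESeq2 called Col4a1 and Col4a2. Leaving out a library gave 0 to 82 called genes, the most without wild type replicate 1. Igfbp3 had the smallest edgeR adjusted p, 0.065, with an interaction of 3.55 (SE 0.53). It was at 20.5, 9.54, 30.8 and 29.3 CPM in cycling endothelial cells and at 59.0, 81.7, 13.0 and 6.29 CPM in cycling mesenchymal cells. Col4a1, a chain of basement membrane collagen IV, was at 2122, 2851, 2875 and 2759 CPM in the endothelial members. In the mesenchymal cells it was at 1005, 1320, 624 and 607 CPM (interaction log2 1.16, SE 0.18). In both genes the mesenchymal values were lower in both CKO libraries, while no endothelial CKO value lay below the wild type range.

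As a share of endothelial cells, cycling cells were measured after thinning to 3000 UMIs, because a deeper cell meets the rule more easily. Of the gated cells 428, 524, 146 and 320 were deep enough, and 140, 82, 45 and 139 shallower ones were left out. Cycling cells made up 14.7% (95% Wilson interval 11.6 to 18.3), 8.94% (6.87 to 11.8), 22.8% (16.8 to 30.4) and 16.9% (13.1 to 21.4), averaged over 20 draws, and the intervals cover counting error only. Both CKO libraries were above both wild type libraries, at 19.9% ± 4.23 against 11.8% ± 4.08 (SD, n = 2 each). The difference was 8.03 percentage points (exact two-sided permutation p = 0.333, the smallest possible). The intervals of both CKO libraries overlapped that of wild type replicate 1. Unthinned shares were 15.0%, 10.2%, 25.7% and 16.6%.

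Among all cells the groups did not separate. Members made up 1.59%, 1.21%, 1.11% and 1.32% of all passing barcodes (exact permutation p = 0.667). The higher share in CKO thus stood beside fewer non-cycling endothelial cells per library, 103 and 311 against 400 and 464. Numbers of cells recovered from a digested lung depend on dissociation, and whether that differed between libraries was not tested.

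**Figure D5:**
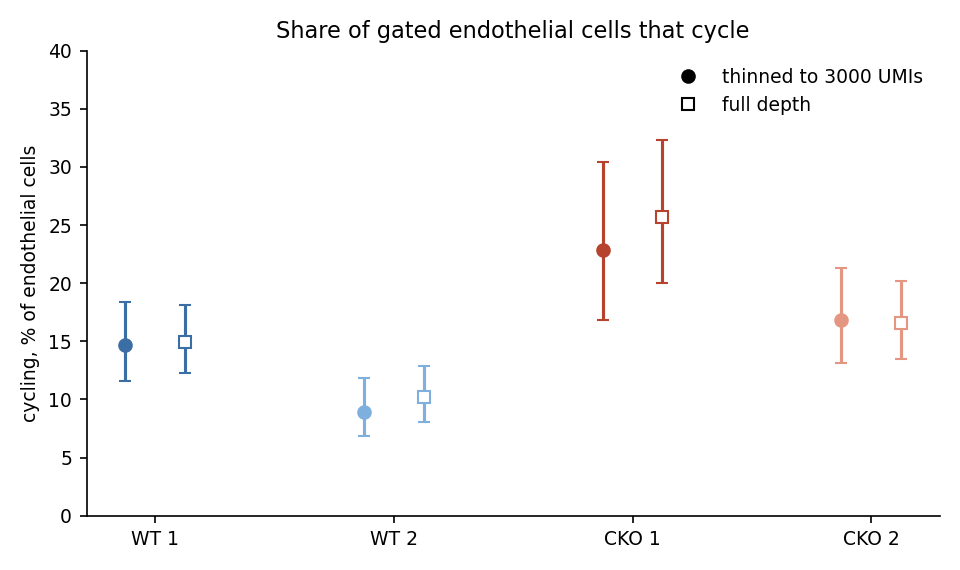
Percent of endothelial cells that met the cycling rule per library, after thinning to 3000 UMIs (filled circles) and at full depth (open squares), with 95% Wilson intervals as bars. After thinning, CKO libraries stand at 22.8% and 16.9%, and wild type libraries at 14.7% and 8.94%.

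Cycling cells were found among the cells marked for each capillary type. Cells with UMIs of at least 2 of Car4, Ednrb, Fibin, Tbx2, Apln and Chst1 were called aerocyte-marked, and the others with at least 2 of Gpihbp1, Aplnr, Kit, Plvap, Cd93 and Lpl general-capillary-marked. A cell that met both marks was counted as aerocyte-marked, so the mark alone does not establish a dividing aerocyte. Aerocyte-marked cycling cells numbered only 7.7, 6.4, 4.1 and 14.7 at 3000 UMIs, averaged over draws. At 3000 UMIs 8.57%, 5.59%, 27.4% and 16.9% of aerocyte-marked cells cycled, against 17.8%, 10.1%, 23.5% and 17.8% of general-capillary-marked cells. The aerocyte share was lower in both wild type libraries, by 9.22 and 4.49 points, and the mean difference over 4 libraries was -2.68 points (exact sign-flip permutation p = 0.375, where 0.125 is the smallest possible). The 27.4% of CKO replicate 1 rests on about 15.0 aerocyte-marked cells. Without thinning the mean difference turned to 9.62 points, so the order of the marked groups depended on depth.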

How the data were processed

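Lung suspensions (collagenase IV, DNase I and dispase II, with red cell lysis, per the labels' protocols) gave 4 droplet 3′ libraries. The deposited values are raw UMI counts per gene and barcode; the submitters' processing notes name bcl2fastq 2.20, Cell Ranger 3.1.0, Seurat and GRCm38.p6. Of 55471 gene identifiers, 55230 were found in GENCODE vM21, used here for names. The members and gene lists were chosen with earlier results of these data known.

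For each library the UMIs of a population's cells were added up, and CPM are UMIs per 1000000 of that sum. edgeR 4.0.16 (R 4.3.3, limma 3.58.1; filterByExpr, TMM, quasi-likelihood F-test, prior count 2) compared 2 with 2 libraries, with Benjamini-Hochberg adjustment over all genes tested and a threshold of 0.05. SE is the log2 difference over the square root of F. Interactions between populations kept the library as a term. Shares and medians at 3000 UMIs used 20 random draws or 1 draw per cell and an exact permutation test over libraries. Scrublet (expected rate 6%) marked doublets, which stayed in. The scripts were tested on simulated data. Ratios of cycling to non-cycling cells add 5 CPM.

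Named genes were drawn from Dnmt1, the genes of the rule, called genes whose mean log2 CPM reached 5 (up to 12 each way, or 6 for other tests), the 10 with the smallest p where fewer than 3 were called, up to 4 per list by adjusted p and 4 by level, and the 12 highest and lowest ratios. Not every gene of these sets is given. Other list members given as examples were chosen after their values were seen. Alternatives were DESeq2 1.42.0, scaling by RLE or by library size, keeping low-count genes, a replicate block, each library left out, stricter cells (1000 genes, 10% mitochondrial), doublets left out, 2 or 4 cycling genes, equal cells, sex-linked genes left out and thinning to 2000 or 5000 UMIs. Added after seeing the data were a limit of 8000 UMIs per cell, cells under 3 germline UMIs, and the cycling rule after thinning. Promoters are from RefSeq.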

Additional observations from a re-analysis of the deposited data

How the results depend on the processing

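With 2 libraries a side the count of called genes moved with the setting. In cycling endothelial cells it was 0, and it became 1 with DESeq2 (Igfbp7), 1 with cells thinned to at most 8000 UMIs (Fabp4), 2 with the cycling genes required after thinning (Fabp4 and Fabp5) and 50 with no low-count filter. Leaving out a library gave 0 to 55 called genes there: 2 without wild type replicate 1, 0 without wild type replicate 2, 50 without CKO replicate 1 and 55 without CKO replicate 2, where the lone library is assumed to vary like the others. In non-cycling cells the count was 11, with 4 in DESeq2, 7 without Scrublet doublets, 6 with equal cells, 66 with no low-count filter and 38 to 145 without 1 library. For cycling against non-cycling cells it was 0, with 31 with no low-count filter and 0 to 33 without 1 library; against cycling mesenchymal cells it was 0, with 2 in DESeq2, 66 with no low-count filter and 0 to 82 without 1 library. The cause of these moves was not tested. Over the alternatives, the 12 named genes of the comparison in cycling cells kept their direction in all 200 values available. A gene without an adjusted p in a setting, such as one below its low-count filter, was left out of this count and the next. These genes were mostly picked by their p in the same cells, so a kept direction is not separate evidence. The 11 genes called in non-cycling cells kept their direction in all 144 values, and 20 of these no longer passed. The main test did not treat the replicate numbers as pairs. Same-numbered libraries deviated with a correlation of -0.01 in cycling and 0.03 in non-cycling cells, or 0.04 and 0.08 without sex-linked genes. With 2 libraries a group the crossed pairing gives the same value with the opposite sign, so this cannot decide whether the libraries are paired. The replicate block gave 41 and 62 called genes.

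The higher share of cycling cells in CKO kept its direction in all 11 alternatives, between 5.03 and 13.6 points. The lower share in aerocyte-marked cells ranged from -5.17 to -0.494 points under thinning and turned to 9.62 without it. Depth limits low genes: with 649434 UMIs in the shallowest sum, a count of 3 stands for 4.62 CPM.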
